A study of Mus musculus with 15 samples.

Results

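Astrocytes are the glial cells that take up glutamate, buffer potassium, move water at blood vessels and wire themselves together through gap junctions. The 10 genes described here carry that work or mark its disturbance. Gfap, Aqp4, Slc1a2, Slc1a3, Aldh1l1, Gja1, Gjb6, S100b, Serpina3n and Lcn2 were read by their gene identifiers from a table of 46679 genes, and all 10 passed the filter on low counts that left 17481 genes for testing. RNA came from naïve brain and from tumors that had grown in the brain to the humane endpoint, with 3 C57BL/6 mice in each of 5 groups and 15 libraries in all. The tumor lines CT2A and GL261 arose after treatment of mice with a chemical carcinogen (methylcholanthrene), 005 came from p53 heterozygous mice given activated H-Ras and AKT, and Mut3 from mice with inactivated NF1 and p53. Mice aged 6 to 8 weeks at implantation were given 100000 tumor cells, or 500000 for Mut3, in the right hemisphere, with all lines carrying GFP and firefly luciferase, and were perfused with saline before the tissue was taken. Each tumor group is 1 cell line, so a difference between groups is a difference between these lines. The tissue was not sorted. Tumor cells and host cells share each library, and fewer astrocytes cannot be told apart from less RNA per astrocyte.

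Resting astrocytes are recognized by the glutamate transporters GLT-1 (Slc1a2) and GLAST (Slc1a3), by the folate enzyme Aldh1l1, by the water channel aquaporin-4 (Aqp4) and by the connexins 43 (Gja1) and 30 (Gjb6). Around injury or a tumor, astrocytes become reactive. They thicken their intermediate filaments, of which GFAP is the defining protein, and make acute phase proteins such as the protease inhibitor Serpina3n and the iron-siderophore carrier lipocalin-2 (Lcn2). Signals through gp130 receptors and STAT3 and through NF-κB are the classical inducers of this state. Gliomas can keep astrocyte or progenitor genes of their own, and oligodendrocyte lineage cells also make S100b.

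The promoters of the 3 gliosis genes, Gfap, Serpina3n and Lcn2, are shown because these were the members that rose. The sequences are RefSeq promoters on GRCm38.p6, printed 5′ to 3′ on the gene's strand from 200 bases before the transcription start to 10 bases after it, with matches to 3 motifs in capitals. Each motif was searched on both strands over 300 bases, from 250 before the start to 50 after. The letters were TTCNNNGAA for STAT factors, GGGA and CC with any 4 bases between them for NF-κB and TGANTCA for AP-1. The Gfap stretch lies at chr11:102897191-102897400 on the minus strand, that of Serpina3n at chr12:104406508-104406717 on the plus strand and that of Lcn2 at chr2:32387730-32387939 on the minus strand.
Gfap: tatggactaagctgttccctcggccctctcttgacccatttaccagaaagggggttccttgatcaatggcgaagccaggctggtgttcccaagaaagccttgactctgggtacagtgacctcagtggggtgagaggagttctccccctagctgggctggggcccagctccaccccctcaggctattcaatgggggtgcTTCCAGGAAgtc
Serpina3n: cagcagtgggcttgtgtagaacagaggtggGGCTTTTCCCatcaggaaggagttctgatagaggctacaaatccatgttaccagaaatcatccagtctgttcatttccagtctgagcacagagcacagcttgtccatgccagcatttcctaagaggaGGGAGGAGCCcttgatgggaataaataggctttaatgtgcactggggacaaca
Lcn2: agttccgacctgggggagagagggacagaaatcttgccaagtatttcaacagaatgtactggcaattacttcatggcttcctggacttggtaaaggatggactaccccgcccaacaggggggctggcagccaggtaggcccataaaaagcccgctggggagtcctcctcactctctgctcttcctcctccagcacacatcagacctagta

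The Gfap window held 1 STAT match, from base -2 to base 7 counted from the start. The Serpina3n window held 2 NF-κB matches and the Lcn2 window none of the 3 motifs. Of the other members searched, Slc1a3 had 1 STAT match, Gja1 had 1 AP-1 match and Gjb6 had 1 NF-κB match. The Aqp4 promoter was not searched. Such letters are common: of 32851 mouse promoters of this length, 8.3% held the STAT motif, 20.7% the NF-κB motif and 7.8% the AP-1 motif. A match is therefore a description of the sequence and not of binding.

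In GENCODE M21 on GRCm38, the gene of Gfap spans 102887336 to 102900912 on chromosome 11 (minus strand), Serpina3n 104406729 to 104414329 on chromosome 12 (plus strand) and Lcn2 32384633 to 32388252 on chromosome 2 (minus strand). Slc1a2 lies on chromosome 2 from 102658659 to 102790784, Slc1a3 on chromosome 15 from 8634124 to 8710764 and Aldh1l1 on chromosome 6 from 90486427 to 90600203. Gja1 (56377330 to 56402513) and S100b (76253853 to 76261159) share chromosome 10, Gjb6 lies on chromosome 14 from 57123303 to 57133611 and Aqp4 on chromosome 18. The counts are per gene and cover whole genes rather than a chosen exon.

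Library depth and makeup bear on every value below. Total counts were lowest in naïve brain, from 3105119 to 5161132, and ranged from 5380395 to 13130158 in the tumors. A level of 3 counts, the smallest taken as readable, was worth 0.214 to 0.811 CPM (counts scaled to a fixed library total, here after TMM normalization), and covers counting error only. Replicate 3 of 005 stood apart from the other 005 libraries. Its 10 neuron markers summed to 4039 CPM against 713 and 256 CPM, its mitochondrial share was 17.8% against 6.42% and 4.598%, and its 6 choroid plexus markers summed to 13624 CPM. In naïve replicate 2 the 8 oligodendrocyte markers summed to 4365 CPM against 1713 and 1729 CPM in the other naïve brains. Values without one of these libraries stand beside many of the results below.

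Levels below are CPM after TMM normalization, and they compare libraries for the same gene. Changes are log2 fold changes against naïve brain with their standard errors from edgeR's quasi-likelihood test on all 15 libraries. A gene was called at a Benjamini-Hochberg adjusted p under 0.05, taken over all 17481 genes, and a log2 fold change of 1 or more in either direction. The mice of a group are separate animals, and each adjusted p rests on the spread within groups, pooled over all 5.

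Serpina3n, which inhibits granzyme B and other serine proteases and is among the strongest marks of reactive astrocytes, rose in 3 of the 4 tumors. Naïve brains held 24.7, 14.7 and 18.9 CPM, GL261 tumors 655, 515 and 510 CPM, CT2A tumors 141, 107 and 66.9 CPM and 005 tumors 122.98, 71.1 and 79.2 CPM. Every library of these lines lay above every naïve brain. The log2 fold change was 4.85 ± 0.68 in GL261 (edgeR adjusted p = 0.000471), 2.43 ± 0.62 in CT2A (0.00746) and 2.23 ± 0.61 in 005 (0.0280). The 005 call was lost when any of the 3 naïve brains or 005 replicate 1 was left out (adjusted p from 0.0678 to 0.0944), although the fold change stayed between 1.96 and 2.44 in these fits. Mut3 tumors held 12.98, 112 and 22.7 CPM. Replicate 2 of Mut3 was far above the other libraries of its line, and the change of 1.33 ± 0.60 did not pass (edgeR adjusted p = 0.0884). Without that library it was -0.12.

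Lcn2, secreted by reactive astrocytes and also by neutrophils, rose in GL261 and CT2A. Naïve brains ranged from 28.8 to 42.6 CPM. GL261 tumors held 297, 212 and 239 CPM and CT2A tumors 78.0, 88.8 and 57.5 CPM, with no overlap with naïve brain in either line. The log2 fold change was 2.84 ± 0.31 in GL261 (edgeR adjusted p = 0.0001004) and 1.11 ± 0.30 in CT2A (0.0101). In 005, at 36.6, 46.1 and 35.5 CPM, and in Mut3, at 30.8, 45.7 and 22.9 CPM, Lcn2 overlapped with naïve brain. The 95% interval of the log2 change was -0.45 to 0.82 in 005 and -0.70 to 0.56 in Mut3, so a rise of the size seen in GL261 lies outside both intervals. The CT2A call depended on the scaling and on the naïve libraries: the change was 0.88 with library size in place of TMM and 0.997 without naïve replicate 1, both under the threshold on the fold change.

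Gfap, the filament protein by which gliosis is usually stained, was scarce in these naïve brains, at 9.18, 6.48 and 6.49 CPM from 45, 26 and 24 counts. GL261 tumors held 37.7, 60.1 and 33 CPM and Mut3 tumors 29.4, 86.8 and 15.7 CPM. Gfap rose in both, by 2.56 ± 0.59 in GL261 (edgeR adjusted p = 0.00860) and 2.57 ± 0.59 in Mut3 (0.00397). CT2A tumors, at 21.9, 9.32 and 11.2 CPM, and 005 tumors, at 13.2, 11.8 and 28.7 CPM, also lay above all 3 naïve brains, but the changes of 0.93 ± 0.58 and 1.28 ± 0.58 did not pass (edgeR adjusted p = 0.203 and 0.146). All 12 tumors thus held more Gfap than any naïve brain on this scale, by amounts that varied widely within each line.

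**Figure D1:**
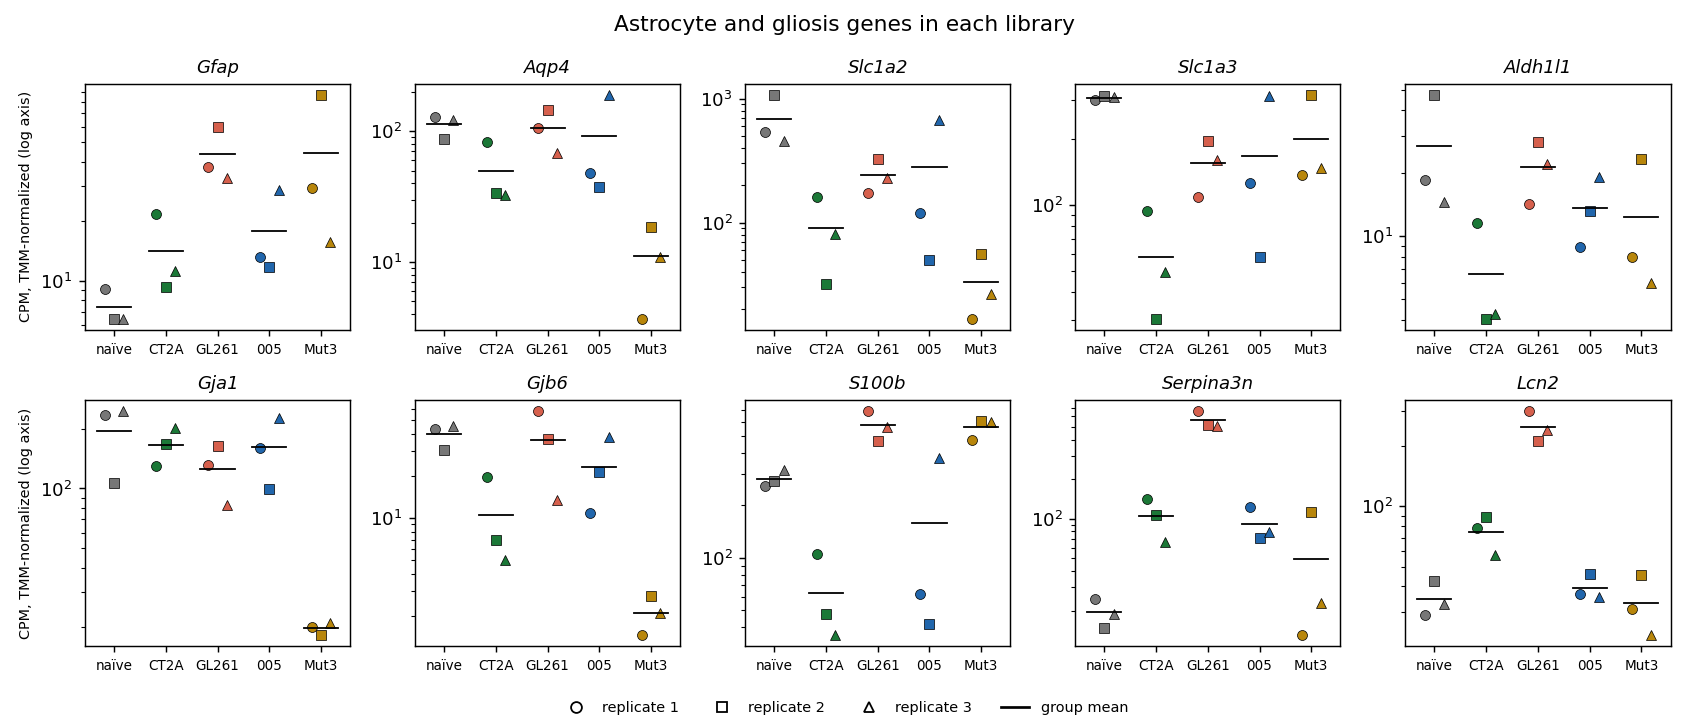
Level of each of the 10 genes in CPM on a log axis, in 15 libraries by group; symbols are replicates and bars are means of 3 mice. Serpina3n and Lcn2 are highest in all 3 GL261 tumors, Gja1 and Gjb6 lowest in all 3 Mut3 tumors, and 005 replicate 3 lies near naïve brain for Slc1a2, Slc1a3 and S100b.

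Of the glutamate transporters, Slc1a2 fell in CT2A and Mut3 and Slc1a3 in CT2A. Slc1a2 was at 540, 1072 and 452 CPM in naïve brain, 160, 32.1 and 80.9 CPM in CT2A and 16.8, 55.4 and 26.6 CPM in Mut3. It fell by 2.92 ± 0.83 on the log2 scale in CT2A (edgeR adjusted p = 0.0131) and by 4.39 ± 0.89 in Mut3 (0.00187). The CT2A call was lost without naïve replicate 2 (-2.24, adjusted p = 0.0582), CT2A replicate 2 (-2.40, 0.0606) or CT2A replicate 3 (-2.83, 0.0518). GL261 tumors, at 172, 323 and 227 CPM, all lay below naïve brain, with a change of -1.51 ± 0.79 that did not pass (edgeR adjusted p = 0.162). Over the 15 fits without 1 library the GL261 change ranged from -1.78 to -0.90, and 1 of these fits called it lower.

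Slc1a3 was the steadiest member in naïve brain, at 302, 312 and 310 CPM. In CT2A it was at 93.8, 30.3 and 49.5 CPM and fell by 2.41 ± 0.57 (edgeR adjusted p = 0.00520). In Mut3, where Slc1a2 was lowest, Slc1a3 was at 137, 317 and 147 CPM, which overlaps with naïve brain (-0.62 ± 0.54, edgeR adjusted p = 0.376). GL261, at 109, 196 and 160 CPM, was below naïve brain in every library without passing the test (-0.99 ± 0.54, edgeR adjusted p = 0.181).

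Aldh1l1, a folate enzyme used as a pan-astrocyte marker, was at 18.6, 47.3 and 14.6 CPM in naïve brain and at 11.6, 4.04 and 4.26 CPM in CT2A. Its fall of 2.01 ± 0.62 in CT2A (edgeR adjusted p = 0.0188) rested in part on naïve replicate 2, without which the change was -1.11 (edgeR adjusted p = 0.168), and did not pass without CT2A replicate 2 (0.0899) or replicate 3 (0.0783). Aldh1l1 was the only member whose test over all 5 groups did not pass (edgeR F test, adjusted p = 0.0768). About 11.4% of its 31-base words also occur in other genes, most of them in Gm15756, so part of its count could have been shared.

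The connexins and the water channel set Mut3 apart from naïve brain. Gja1 (connexin 43) was at 20.1, 18.2 and 21.0 CPM in the Mut3 tumors and at 235, 106 and 244 CPM in naïve brain, a fall of 3.30 ± 0.41 (edgeR adjusted p = 0.000158). In CT2A it was at 130, 167 and 202 CPM, in GL261 at 131, 163 and 82.5 CPM and in 005 at 160, 99.0 and 227 CPM, and each of these lines overlapped with naïve brain. The 3 Mut3 libraries lay close together and far below all others.

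Gjb6 (connexin 30), the partner connexin of astrocytes, fell by 4.22 ± 0.67 in Mut3 (edgeR adjusted p = 0.000556) and by 1.90 ± 0.60 in CT2A (0.0207), where 4 of the fits without 1 library lost the call. Levels were 42.8, 30.4 and 45.2 CPM in naïve brain, 19.5, 6.99 and 5.04 CPM in CT2A and 1.45, 2.77 and 2.11 CPM in Mut3. GL261 tumors spanned 13.3 to 57.6 CPM and 005 tumors 10.8 to 37.6 CPM, overlapping with naïve brain.

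Aqp4 (aquaporin-4), the water channel of the endfeet that astrocytes set on vessels, was at 128, 87.2 and 122.8 CPM in naïve brain. Mut3 tumors held 3.69, 18.6 and 10.99 CPM, and the fall of 3.34 ± 0.69 passed (edgeR adjusted p = 0.00200). CT2A tumors, at 82.4, 33.5 and 32.8 CPM, lay below naïve brain with a change of -1.182 ± 0.63 that did not pass (edgeR adjusted p = 0.144). GL261, from 68.1 to 144 CPM, and 005, from 37.4 to 190 CPM, overlapped with naïve brain.

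S100b, a calcium-binding protein of astrocytes and of part of the oligodendrocyte lineage, parted the lines into high and low. Naïve brains were at 256, 275 and 319 CPM. CT2A tumors were at 104.9, 48.0 and 36.0 CPM, a fall of 2.17 ± 0.64 (edgeR adjusted p = 0.0158) that did not pass without CT2A replicate 2 (adjusted p = 0.0728) or replicate 3 (0.0698). GL261, at 688, 466 and 560 CPM, and Mut3, at 472, 609 and 602 CPM, were above every naïve brain, with changes of 1.01 ± 0.62 and 0.98 ± 0.62 that did not pass (edgeR adjusted p = 0.232 and 0.219). Markers of oligodendrocyte progenitors were also higher in Mut3, where 4 of 5 rose, beside 17.9% of all genes. Their sum was 307 to 679 CPM there against 43.3 to 96.7 CPM in naïve brain. In Mut3 replicates 1, 2 and 3 the sum was 651, 307 and 679 CPM, beside S100b at 472, 609 and 602 CPM. The part of these progenitor markers in the S100b level was not tested.

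**Figure D2:**
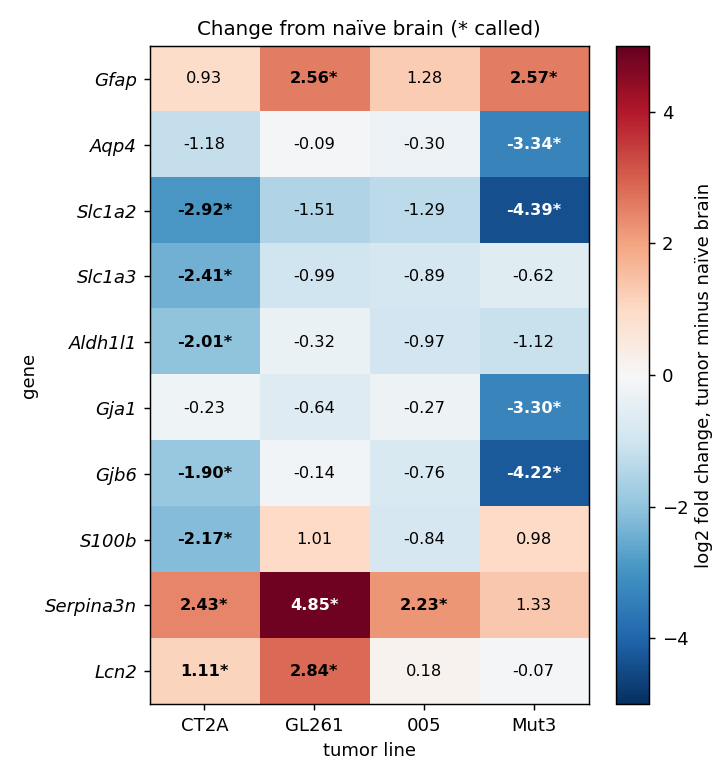
Log2 fold change of each gene (rows) in each tumor line against naïve brain (columns), from the edgeR fit to 15 libraries; bold values with an asterisk were called. CT2A has 2 higher and 5 lower calls, GL261 has 3 higher, 005 has 1 higher and Mut3 has 1 higher and 4 lower.

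By count, CT2A had 7 of the 10 genes called (2 higher and 5 lower) where 39.2% of all tested genes were called, 19% higher and 20.2% lower. GL261 had 3 called, all higher (Gfap, Serpina3n and Lcn2), where 14.6% of all genes were higher and 7.77% lower, 22.4% in all. In 005 the 1 call, Serpina3n, compares with 12.7% of all genes, 11.6% higher and 1.05% lower. Mut3 had 5 called, 1 higher and 4 lower, where 37.8% of all genes were called, 17.9% higher and 19.8% lower. The count of 0 lower calls in GL261 and 005 came from edgeR. At an unadjusted p under 0.05 it was also 0 in both, and DESeq2 called 0. It did not hold in every fit. Slc1a2 was called lower in GL261 in 1 of the 15 fits that left out 1 library, and 005 had lower calls without its replicate 3. With only the 2 groups compared, GL261 had 5 calls in all. The 10 genes had a median log2 change of -1.54 in CT2A and -0.87 in Mut3, with -0.11 in GL261 and -0.53 in 005, where the medians over all tested genes were -0.04, 0.11, -0.08 and 0.01 in the same order. The 4 comparisons share the same 3 naïve brains.

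These directions are relative to a scale. On TPM (transcript abundance scaled to gene length and to a fixed total), every log2 change against naïve brain is lower by the same amount in a line, by 0.98 in CT2A, 0.81 in both GL261 and Mut3, and 0.60 in 005. On log2(TPM + 1) in limma, the higher calls among the 10 genes were 0 in CT2A, 2 in GL261 (Serpina3n and Lcn2), 1 in 005 (Serpina3n) and 0 in Mut3, and the lower calls 7, 3, 2 and 5. Gfap turned to -0.04 in CT2A and Lcn2 to -0.39 in 005, and Lcn2 in CT2A was 0.11 (adjusted p = 0.799). The Gfap changes of 1.23 in GL261 and 1.04 in Mut3 kept their sign without passing (limma adjusted p = 0.0526 and 0.0999). Besides the shift of scale, the 1 added to each TPM shrinks the changes of genes at low TPM, such as Gfap at 1.43 TPM in naïve brain. Over all tested genes the share of calls that were higher moved from 48.4% to 19% in CT2A, 65.3% to 22.3% in GL261, 91.7% to 27.6% in 005 and 47.5% to 20% in Mut3, and DESeq2 gave 75.5% in 005.

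The 005 libraries were not alike for these genes. Slc1a2 was at 120, 50.1 and 671 CPM in replicates 1, 2 and 3, Slc1a3 at 126, 57.7 and 315 CPM and S100b at 61.8, 41.8 and 372 CPM. Replicate 3 lay within the naïve range or above it for these 3 genes, and the other replicates below it. Aldh1l1 (8.86, 13.2 and 19.1 CPM) and Gjb6 (10.8, 21.4 and 37.6 CPM) were also highest there. When replicate 3 was left out, Slc1a2 fell by 3.08 ± 0.70 (edgeR adjusted p = 0.00380), Slc1a3 by 1.81 ± 0.50 (0.0118) and S100b by 2.52 ± 0.41 (0.000409), while Serpina3n was higher by 2.25 ± 0.64 (0.0138). That made 4 calls, 1 higher and 3 lower, where 35.7% of 18300 genes were called, 17.6% higher and 18.1% lower. Neuron markers moved in the same way, with 1 of 10 lower with replicate 3 and 10 of 10 lower without it, and their part in the difference was not tested.

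**Figure D3:**
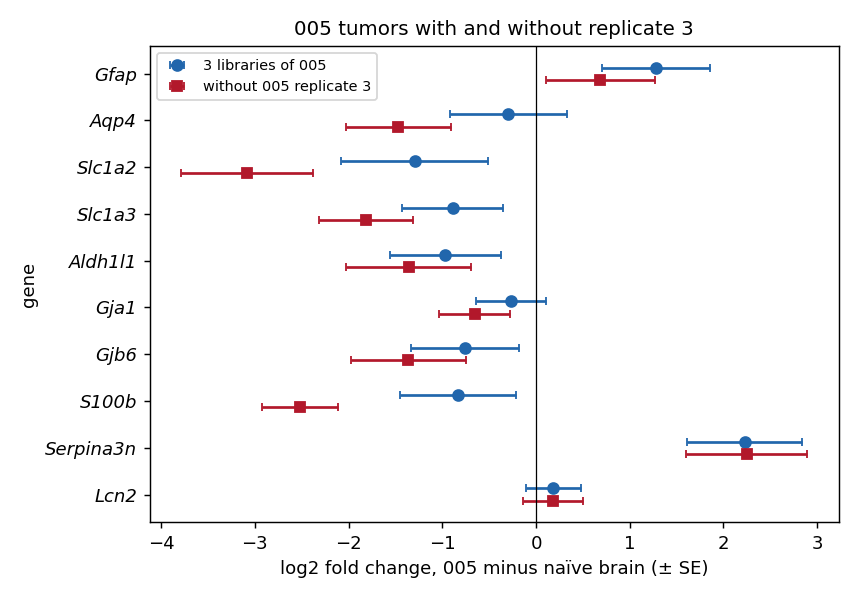
Log2 fold change of each gene in 005 against naïve brain, with SE as bars, from all 3 libraries of 005 (circles) and without replicate 3 (squares). Slc1a2, Slc1a3 and S100b move from -1.29, -0.89 and -0.84 to -3.08, -1.81 and -2.52, while Serpina3n stays at 2.23 and 2.25.

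Between tumor lines, the test of the difference itself was made in the same fit. Mut3 differed from each other line in the connexins: Gja1 was higher by 3.07 ± 0.40 in CT2A (edgeR adjusted p = 0.000300), 2.66 ± 0.40 in GL261 (0.000988) and 3.03 ± 0.40 in 005 (0.000426) than in Mut3. Gjb6 was higher than in Mut3 by 2.32 ± 0.63, 4.07 ± 0.67 and 3.46 ± 0.65 in the same order, and Aqp4 by 2.16 ± 0.66, 3.26 ± 0.68 and 3.05 ± 0.68. No Mut3 library reached the level of any CT2A, GL261 or 005 library for these 3 genes. The CT2A difference was lost in 8 of 15 fits without 1 library for Aqp4 and in 4 for Gjb6. On log2(TPM + 1) it was 0.70 and 0.64, under the threshold on the fold change. Mean levels of Aqp4 were 1.14 TPM in CT2A and 0.274 TPM in Mut3, and those of Gjb6 1.01 and 0.216 TPM. At such levels the added 1 holds the difference down, so that setting cannot decide whether these 2 calls depend on the scale.

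GL261 differed in the acute phase genes. Its Lcn2 level was above that of CT2A by 1.74 ± 0.30 (edgeR adjusted p = 0.00336), of 005 by 2.66 ± 0.31 (0.000246) and of Mut3 by 2.91 ± 0.31 (0.000113). Its Serpina3n level was above CT2A by 2.41 ± 0.61 (0.0255), 005 by 2.62 ± 0.61 (0.0335) and Mut3 by 3.51 ± 0.64 (0.00291). The Serpina3n differences from CT2A and 005 were each lost in 5 of the fits that left out 1 library. Between CT2A and GL261, 3 of the 10 genes were called, all lower in CT2A, where 7.77% of all genes were called, 4.15% higher and 3.62% lower in CT2A. Between GL261 and 005, 2 were called, both higher in GL261, where 2.62% of all genes were called, 1.73% higher and 0.887% lower. Between GL261 and Mut3, 6 were called, all higher in GL261, where 17.2% of all genes were called, 11.1% higher and 6.1% lower.

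S100b, Slc1a3 and Lcn2 also differed between CT2A and Mut3. S100b was lower in CT2A than in Mut3 by a log2 change of -3.15 ± 0.67 (edgeR adjusted p = 0.00646) and than in GL261 by -3.18 ± 0.67 (0.00974), the latter a call lost without CT2A replicate 2 (0.0530) or replicate 3 (0.0587). Slc1a3 was lower in CT2A than in Mut3 (-1.79 ± 0.55, edgeR adjusted p = 0.0457), a call lost in 12 of 15 fits without 1 library. Lcn2 was higher in CT2A than in Mut3 by 1.176 ± 0.30 (edgeR adjusted p = 0.0175), a call narrowly lost without CT2A replicate 2 (0.05001) or Mut3 replicate 3 (0.0501). Slc1a2 was higher than in Mut3 in GL261 (2.87 ± 0.83, edgeR adjusted p = 0.0288) and in 005 (3.09 ± 0.84, 0.0195). The GL261 call was lost without GL261 replicate 2 or 3 or Mut3 replicate 1 or 3 (adjusted p from 0.0616 to 0.0950). The 005 call was lost without Mut3 replicate 1 (0.0766) or 3 (0.0651), and the difference was 1.32 (0.158) without 005 replicate 3. CT2A and Mut3 differed in 6 members, 4 higher and 2 lower in CT2A, where 12.8% of all genes were called, 6.61% higher and 6.15% lower. The 005 and Mut3 lines differed in 4 members, all higher in 005, where 19.8% of all genes were called, 14% higher and 5.76% lower. Between CT2A and 005, edgeR called 0 members where 4.11% of all genes were called, 2.12% higher and 1.99% lower. At an unadjusted p under 0.05 there were 2, 1 in each direction, and DESeq2 called 0.

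Levels between genes can be compared only per length, in TPM. In naïve brain S100b was highest at 87.5 ± 20.0 TPM (SD, n = 3), followed by Slc1a3 at 28.7 ± 7.70, Lcn2 at 25.8 ± 12.04, Slc1a2 at 22.2 ± 16.6 and Gja1 at 17.2 ± 3.78 TPM. The ranges of Slc1a3, Lcn2 and Slc1a2 overlap, as does that of Gja1 (12.9 to 20.2 TPM) with Lcn2 and Slc1a2, so their order is not settled. Gjb6 (6.91 ± 0.33), Aldh1l1 (5.74 ± 5.20), Aqp4 (4.82 ± 0.44) and Serpina3n (4.67 ± 0.93) had lower means, although Aldh1l1 reached 11.7 TPM in naïve replicate 2, and Gfap was lowest at 1.43 ± 0.37 TPM. In GL261 the top 3 were Lcn2 at 99.8 ± 11.5, S100b at 99.0 ± 14.5 and Serpina3n at 77.3 ± 4.29 TPM, and the first and second did not differ beyond their spread. Next came Slc1a3 at 8.30 ± 3.15 TPM. In CT2A the highest means were Lcn2 at 26.9 ± 6.84, Serpina3n at 13.3 ± 6.21, S100b at 10.3 ± 7.33 and Gja1 at 7.68 ± 0.98 TPM. S100b was at 18.7, 6.89 and 5.20 TPM there, so its place above Gja1, at 6.98, 7.26 and 8.80 TPM, rests on CT2A replicate 1. In Mut3 S100b stood far above the rest at 97.3 ± 14.04 TPM, followed by Lcn2 at 13.3 ± 4.92 and Slc1a3 at 10.4 ± 5.49, while Gja1, Slc1a2, Aqp4 and Gjb6 were at most at 1.08 TPM in any Mut3 library. In 005, S100b (40.6 ± 55.2), Slc1a3 (11.9 ± 12.7), Slc1a2 (6.92 ± 9.62) and Aqp4 (3.20 ± 3.76 TPM) had an SD above their mean.

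The balance of the glutamate transporters within a library was a further mark of Mut3, chosen after its values were seen and given without a test. The ratio of Slc1a3 to Slc1a2 in TPM was 1.75, 0.907 and 2.14 in naïve brain, 1.83, 2.95 and 1.91 in CT2A, 1.97, 1.89 and 2.20 in GL261 and 3.27, 3.59 and 1.47 in 005. In Mut3 it was 25.5, 17.9 and 17.3. The other 12 libraries lay between 0.907 and 3.59, and a ratio within a library does not depend on how the libraries were scaled. Gfap over Aldh1l1, a filament gene against a resting marker and also given without a test, was at most 0.500 in naïve brain and at least 0.923 in every tumor. Its means were 3.42 in Mut3, 2.32 in CT2A, 2.13 in GL261 and 1.33 in 005. A higher ratio need not mean more Gfap. In CT2A mean Gfap was 1.44 TPM against 1.43 TPM in naïve brain, and mean Aldh1l1 0.673 against 5.74 TPM. Gfap over Vim, another filament gene, went the other way, at least 0.0866 in naïve brain and at most 0.0856 in every tumor.

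**Figure D4:**
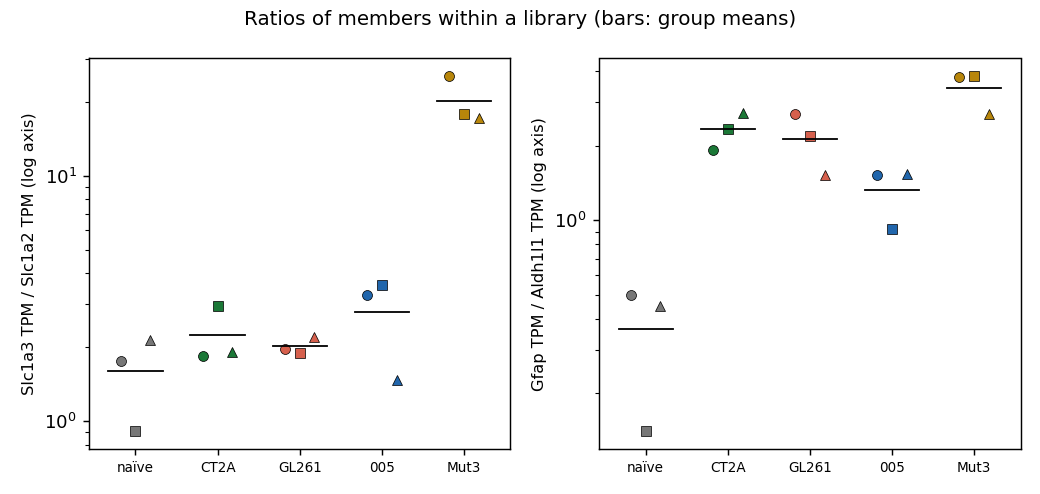
Ratio of Slc1a3 to Slc1a2 (left) and of Gfap to Aldh1l1 (right), both in TPM within a library on a log axis, in 15 libraries by group; circles, squares and triangles are replicates 1, 2 and 3, and bars are means of 3 mice. The Mut3 tumors lie from 17.3 to 25.5 on the left, and all tumors lie above 0.500, the highest naïve value, on the right.

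Beyond the 10 genes, a list of 29 other astrocyte genes, some of them also in the shorter lists below, gave 0 higher and 23 lower calls in CT2A, where 20.2% of all tested genes were lower, with a median log2 change of -2.52. Id4, a repressor of differentiation (-3.23), Cldn10, a claudin (-3.14), Ttyh1, a membrane protein (-3.13), and Dio2, which activates thyroid hormone (-2.93), fell most there. The count was 13 lower without naïve replicate 2. In Mut3 11 fell and 1 rose, where 19.8% of all genes fell, with a median of -1.37. Cldn10 (-4.41), the GABA transporter Slc6a11 (-4.18) and Id4 (-4.15) were the lowest, and Fabp7, a fatty acid carrier of radial glia, rose by 1.49 ± 0.50 (edgeR adjusted p = 0.0280), a call lost without Mut3 replicate 2. Without naïve replicate 2, 7 fell and 3 rose. In GL261, where 7.77% of all genes were lower, the amino acid transporter Slc7a10 was the 1 lower call (-2.37). When 005 replicate 3 was left out of the fit, 10 of the list were lower in GL261. In 005 edgeR called 0, with 5 at an unadjusted p under 0.05 and 1 called by DESeq2. Without 005 replicate 3, 24 were lower in 005, where the share of all genes that were lower went from 1.05% to 18.1%. For the other lines the shares of all genes in the fits without 1 library are not given here, so whether their list counts moved more than all genes cannot be read.

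Of 13 pan-reactive genes, a list that includes Gfap, Lcn2 and Serpina3n, 10 rose in GL261, 8 in CT2A, 8 in 005 and 4 in Mut3, where 14.6%, 19%, 11.6% and 17.9% of all tested genes rose, and edgeR and DESeq2 called 0 lower in any line, also at an unadjusted p under 0.05. Their median log2 change was 2.84, 1.71, 1.79 and 0.80 in the same order. On log2(TPM + 1) 7, 4, 5 and 1 rose and 0 fell. Vim, the filament protein vimentin, rose in all 4 lines, from 4.02 ± 0.60 in Mut3 to 4.70 ± 0.62 in 005 (edgeR adjusted p from 0.000276 to 0.00175). Cd44, a hyaluronan receptor, rose by 4.88 in CT2A, 4.24 in 005, 3.21 in GL261 and 2.21 in Mut3. Both are also made by tumor, immune and mesenchymal cells. Cp, the copper oxidase ceruloplasmin, rose by 4.19 in GL261, and the chemokine Cxcl10 by 3.805.

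Of 12 genes first listed for neurotoxic, A1-type astrocytes, 8 rose in GL261, 7 in CT2A, 7 in 005 and 5 in Mut3, beside the same 14.6%, 19%, 11.6% and 17.9% of all genes. Many of them are interferon-induced in most cell types, such as the GTPases Gbp2 (5.88 in GL261 and 5.82 in 005) and Iigp1 (5.84 and 4.81), the immunoproteasome subunit Psmb8 (5.15 and 3.09) and the class I molecule H2-D1 (3.62 and 3.69). In Mut3 the matrix protein Fbln5 rose by 4.32 and the adhesion protein Amigo2 was the 1 lower call (-3.49). Of 12 genes for A2-type astrocytes, seen after ischemia, 7 rose in CT2A, 5 in each of GL261 and 005 and 4 in Mut3 (2 without either naïve replicate 2 or Mut3 replicate 2), again beside 19%, 14.6%, 11.6% and 17.9% of all genes. Ptgs2, the inducible cyclooxygenase, was the 1 lower call in GL261 (-1.71) and in Mut3 (-2.61) while it rose in CT2A (2.09). Emp1, a membrane protein of this list, rose by 5.92 in CT2A and 4.82 in 005.

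Among 7 genes of glutamate and glutamine handling, which include Slc1a2 and Slc1a3, 5 fell in CT2A (3 without naïve replicate 2) and 3 in Mut3 (2 without it), beside 20.2% and 19.8% of all genes. Glul, the glutamine synthetase of astrocytes, fell by 2.52 ± 0.55 in CT2A (edgeR adjusted p = 0.00364) and by 2.94 ± 0.56 in Mut3 (0.00131). In GL261, where 7.77% of all genes were lower, edgeR and DESeq2 called 0 of the 7, with 0 at an unadjusted p under 0.05. There limma on log2(TPM + 1) called 5 lower, and 3 were lower in edgeR without 005 replicate 3. In 005 edgeR called 0, with 2 at an unadjusted p under 0.05 and 1 called by DESeq2. Without replicate 3, 4 were lower in 005, where 18.1% of all genes were lower. Among 8 endfoot genes, Aqp4 included, Dmd (dystrophin) fell by 3.50 in Mut3 and Dag1 (dystroglycan) rose there by 1.19 ± 0.33 (edgeR adjusted p = 0.0101). The calls in CT2A were 4, all lower (1 without naïve replicate 2), in GL261 1 (Dtna, dystrobrevin, -1.38) and in Mut3 4, of which 3 were lower. The shares of all genes that were lower were 20.2%, 7.77% and 19.8%. In 005 edgeR called 0 and DESeq2 0, with 1 at an unadjusted p under 0.05. Without 005 replicate 3, 5 endfoot genes were lower there, beside 18.1% of all genes.

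A list of 15 genes of the gp130 receptors and STAT3 had 3 higher and 1 lower call in CT2A, 3 higher in GL261, 4 higher in 005 and 1 higher and 2 lower in Mut3. For CT2A and GL261 the higher calls, 3 of 15, are near the 19% and 14.6% of all genes, and in Mut3 both directions are below the 17.9% and 19.8% of all genes. The 4 of 15 higher in 005 stand beside 11.6% of all genes, and the 1 lower in CT2A is below the 20.2% of all genes. Without naïve replicate 2 CT2A had 2 higher and 0 lower. Without 005 replicate 3 the 005 tumors had 6 higher, where 17.6% of all genes were higher. Socs3, the feedback inhibitor that STAT3 induces, rose by 3.26 ± 0.75 in GL261 (edgeR adjusted p = 0.00800), 3.10 ± 0.74 in 005 (0.0143) and 2.18 ± 0.74 in CT2A (0.0298), whereas in Mut3 it was at 0.671, 1.64 and 0.704 CPM against 0.816, 0.249 and 1.35 CPM in naïve brain, near the level of 3 counts. Osmr, the oncostatin M receptor, rose in GL261 (2.46) and 005 (1.94), and Stat3 in GL261 (1.36) and Mut3 (1.37, where the groups overlap). The cytokine Lif rose in 005 (3.96). Slc22a17, a receptor for Lcn2, was at 155, 250 and 113 CPM in naïve brain and fell by 3.61 ± 0.85 in CT2A (edgeR adjusted p = 0.00527) and 3.36 ± 0.84 in Mut3 (0.00618).

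**Figure D5:**
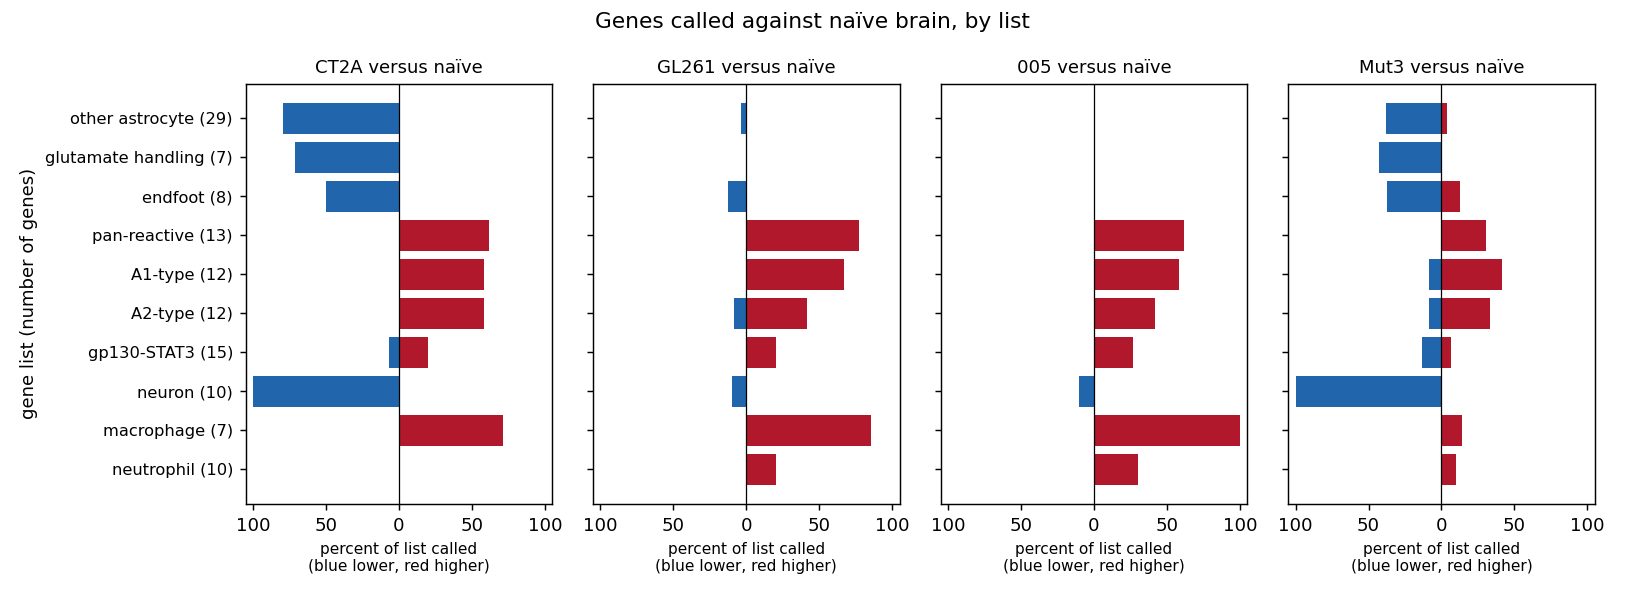
Percent of each list called higher (red, right) and lower (blue, left) than naïve brain in each tumor line by the edgeR fit to 15 libraries; the number of genes in a list is in parentheses. Other astrocyte genes are lower in CT2A (23 of 29) and Mut3 (11 of 29), and pan-reactive genes are higher in all 4 lines, by 8, 10, 8 and 4 of 13.

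Serpina3n belongs to a cluster of near copies on chromosome 12, and 21.6% of its 31-base words also occur in other Serpina3 genes. Naïve brain held 0 counts of Serpina3i and at most 12 counts of any other copy in a library. Serpina3g rose by 4.03 ± 0.78 in GL261 (edgeR adjusted p = 0.00292) and 4.32 ± 0.78 in 005 (0.00317). Per length, Serpina3g was at 6.27, 2.34 and 6.20 TPM in GL261 beside 75.7, 74.1 and 82.2 TPM for Serpina3n, and in 005 replicate 2 at 13.1 TPM beside 10.2 TPM. Serpina3f reached 28.8 CPM in GL261 and 35.4 CPM in 005, Serpina3i 14.9 CPM and Serpina3m 2.91 CPM at most, Serpina3c and Serpina3h at most 7 counts in a library, and Serpina3a, Serpina3b, Serpina3j and Serpina3k were at 0 in all libraries. Reads shared among these copies make the Serpina3n level uncertain by an amount that was not tested.

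Cells that could carry some of these transcripts were read from their own markers. The 10 neutrophil markers summed to between 15.2 and 22.7 CPM in naïve brain, between 22.6 and 27.9 CPM in GL261 and between 27.5 and 42.1 CPM in CT2A, the lines where Lcn2 rose. They summed to 38.0 to 95.5 CPM in 005 and 31.9 to 58.1 CPM in Mut3, where Lcn2 did not pass. Much of the sum was Cxcr2 in Mut3, at 24.5 to 46.9 CPM, and in CT2A, at 16.8 to 25.1 CPM. Cxcr2 was at 8.22 to 15.7 CPM in naïve brain, 2.69 to 9.10 CPM in GL261 and 8.33 to 21.2 CPM in 005. The order of the lines in these sums thus rests in part on this 1 gene. Of the 6 neutrophil markers that could be tested, 2 rose in GL261 (Retnlg and Csf3r), 3 in 005 and 1 in Mut3. The shares of all genes that rose were 14.6%, 11.6% and 17.9% in the same order. In CT2A edgeR and DESeq2 called 0, with 1 at an unadjusted p under 0.05. In GL261 the granule genes Ngp, Camp and Ltf were at most at 1.09 CPM, Ly6g at 1.45, Mmp8 at 0.607, S100a8 at 5.18, S100a9 at 2.26, Retnlg at 2.91, Csf3r at 10.02 and Cxcr2 at 9.10 CPM. Of 7 macrophage markers, 7 rose in 005, 6 in GL261, 5 in CT2A and 1 in Mut3, beside 11.6%, 14.6%, 19% and 17.9% of all genes. The 1 of 7 in Mut3, like the 1 of 6 neutrophil markers there, is near the share of all genes. The macrophage sum went from 186 to 197 CPM in naïve brain to between 971 and 2228 CPM in GL261 and between 1632 and 10951 CPM in 005. Neuron markers were lower in 10 of 10 in both CT2A and Mut3, in 1 of 10 in GL261 and in 1 of 10 in 005. The shares of all genes that were lower were 20.2%, 19.8%, 7.77% and 1.05% in the same order. The 1 of 10 in GL261 is near its share, and 9 were lower there without 005 replicate 3. The neuron marker sums were 270 to 1234 CPM in CT2A, 1018 to 2064 CPM in GL261 and 129 to 239 CPM in Mut3, against 4504 to 6950 CPM in naïve brain. Oligodendrocyte markers fell in 3 of 8 in CT2A and 6 of 8 in Mut3, and in 0 and 3 of 8 without naïve replicate 2, while CT2A had 7 of 8 without 005 replicate 3. Microglia markers fell in 3 of 8 in CT2A and 5 of 8 in Mut3, and in 2 and 3 of 8 without naïve replicate 2. With all libraries, 20.2% of all genes were lower in CT2A and 19.8% in Mut3. The shares of all genes in the fits without 1 library are not given here for CT2A, GL261 and Mut3. The marker counts from those fits therefore cannot be set against a share. The part of these cells in the member levels was not tested.

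The genes whose log2 CPM followed each member most closely over the 15 libraries were found by Pearson's r, as a description over libraries that share 5 groups, a tumor line or naïve brain. For Aqp4 they included Fam213a and Ermn (both 0.97), for Gjb6 Aqp4 itself and Syt4 (both 0.93), and for Slc1a2 they were Dmtn, Hs3st4 and Mapk8ip2 (all 0.99). Slc1a3 was nearest to Fgfr2 (0.94), Mmd2 and Phkg2, S100b to B9d1 (0.96), Cyp2j9 and Plekhb1, and Gja1 to Rgs17 (0.94), Mcts2 and Tmem141. Serpina3n was nearest to C1rl (0.93), Ifi27l2a and A2m, Lcn2 to Dppa4 (0.97) and Alx1, with 1 gene without a symbol between them, Gfap to Dnaic2 (0.92), Lrguk and Tex19.1, and Aldh1l1 to Slc35f3 (0.94), Usp35 and Tbc1d32. Only Gjb6 had another of the 10 members among its nearest 3.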

How the data were processed

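Total RNA from unsorted tissue of 15 mice was sequenced, and per the labels reads were aligned with STAR 2.4.2a to the mouse genome. The submitters' processing notes name mm10, Salmon and DESeq2 1.18.1. The authors deposited 2 tables per gene, expected counts (estimated counts that need not be whole) and TPM, which differ only by a factor per gene and library. Of 46679 gene identifiers, 46201 matched GENCODE M21. Expected counts were rounded and tested with edgeR 4.0.16 in R 4.3.3 (filterByExpr, TMM, quasi-likelihood F test, 1 mean per group, all 15 libraries). Benjamini-Hochberg adjustment ran over 17481 genes. Alternatives used DESeq2 1.42.0, limma 3.58.1 on log2(TPM + 1), library-size scaling, other count filters (none, or at least 10 counts in every sample), fits of the 2 groups compared, a replicate block, and leaving out each library. The edgeR fit, but not the alternatives, was also run on simulated counts for CT2A against naïve brain. It called 0% of 71 genes changed 2-fold, 24.2% of 62 changed 4-fold and 56.5% of 62 changed 8-fold. Of the 54 genes called there, 4 were unchanged. In the data 6858 genes were called in this comparison, so the shares found could differ there. A gene that did not pass may still differ between groups. The 10 genes and all lists were chosen with earlier results of these data known. All 10 genes were named in every sample. From each list, up to 4 called genes with the largest absolute change in a comparison were named, plus genes behind counts of 5 or fewer, every Serpina3 gene with a count, every neutrophil marker and, per member, the 3 genes with the highest Pearson r of log2 CPM (prior count 2). Values of such a gene in other lines were added after they were seen. Totals of 3105119 to 13130158 counts per library set the precision. No batch is named in the labels. A few genes that the naming rule would give are not reported here.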

Additional observations from a re-analysis of the deposited data

Results flagged for a closer look

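In 21 cases the change of a gene from naïve brain differed between 2 tumor lines by the test of the difference in the edgeR fit to all 15 libraries. Each value is the log2 difference of the first line from the second, with its SE and adjusted p.

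Between CT2A and GL261, S100b differed by -3.18 ± 0.67 (0.00974), Serpina3n by -2.41 ± 0.61 (0.0255) and Lcn2 by -1.74 ± 0.30 (0.00336), each lower in CT2A. Between GL261 and 005, Serpina3n differed by 2.62 ± 0.61 (0.0335) and Lcn2 by 2.66 ± 0.31 (0.000246). In all 3 GL261 tumors, Serpina3n and Lcn2 lay above every CT2A and 005 tumor.

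Between CT2A and Mut3, Gja1 differed by 3.07 ± 0.40 (0.000300), Gjb6 by 2.32 ± 0.63 (0.0257), Aqp4 by 2.16 ± 0.66 (0.0423) and Lcn2 by 1.176 ± 0.30 (0.0175), higher in CT2A. S100b differed by -3.15 ± 0.67 (0.00646) and Slc1a3 by -1.79 ± 0.55 (0.0457), lower in CT2A. Between GL261 and Mut3, Gjb6 differed by 4.07 ± 0.67 (0.00160), Serpina3n by 3.51 ± 0.64 (0.00291), Aqp4 by 3.26 ± 0.68 (0.00634), Lcn2 by 2.91 ± 0.31 (0.000113), Slc1a2 by 2.87 ± 0.83 (0.0288) and Gja1 by 2.66 ± 0.40 (0.000988), all higher in GL261.

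Between 005 and Mut3, Gjb6 differed by 3.46 ± 0.65 (0.00344), Slc1a2 by 3.09 ± 0.84 (0.0195), Aqp4 by 3.05 ± 0.68 (0.00800) and Gja1 by 3.03 ± 0.40 (0.000426), higher in 005. For Slc1a2 the groups overlap, and without 005 replicate 3 the difference was 1.32 (0.158).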

How the results depend on the processing

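Of 61 gene values, 61 kept their direction and side of the threshold with DESeq2, without a count filter, with at least 10 counts in every sample and without a threshold on the fold change, 58 with library-size scaling, 56 with only the 2 groups compared and 39 with limma on log2(TPM + 1). The counts of called genes that moved by over 1.5 times are given first. With only the 2 groups compared they were 5 in GL261 against naïve brain, 6 in CT2A against GL261 and 2 in 005 against Mut3. On log2(TPM + 1) they were 5 in GL261 and 3 in 005 against naïve brain, 2 in CT2A against Mut3 and 2 in 005 against Mut3. DESeq2 gave 5 in CT2A against GL261. Smaller moves were 6 in CT2A against naïve brain and 4 in CT2A against Mut3 with library size, 4 in GL261 against Mut3 on log2(TPM + 1), 7 in CT2A against Mut3 and 5 in 005 against Mut3 with DESeq2 or without a count filter, and 3 in GL261 against 005 with DESeq2. Gfap in CT2A turned to -0.0381 and Lcn2 in 005 to -0.39 on log2(TPM + 1), and Aqp4 in GL261 to 0.0430 with only the 2 groups compared. Apart from the constant scale shift of TPM and the 1 added to each TPM, the cause was not tested.

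With each library left out in turn, the count was 3 to 7 in CT2A, 3 to 4 in GL261, 0 to 4 in 005 and 5 to 6 in Mut3 against naïve brain. Between lines it was 1 to 5 for CT2A and GL261, 0 to 0 for CT2A and 005, 3 to 7 for CT2A and Mut3, 1 to 3 for GL261 and 005, 5 to 6 for GL261 and Mut3 and 3 to 5 for 005 and Mut3. The CT2A count of 3 came without CT2A replicate 2 or 3, and the 005 count of 4 without 005 replicate 3. Values that changed sign were Aqp4 in GL261 (-0.37 to 0.0765) and 005 (-1.47 to 0.0817), Aldh1l1 in GL261 (-0.60 to 0.52), Gjb6 in GL261 (-0.53 to 0.17), Lcn2 in Mut3 (-0.36 to 0.28) and Serpina3n in Mut3 (-0.12 to 1.77), none of them called with all libraries.

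Replicate numbers are shared by the groups, but they number different mice and did not pair them: deviations of same-numbered libraries correlated at -0.0339 on average (-0.331 to 0.262, 30 pairs) and others at 0.0172 (60 pairs). With the replicate block, 56 of 61 gene values kept their call, and the count was 3 in CT2A against Mut3, 1 in GL261 against 005 and 3 in 005 against Mut3.

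Naïve libraries were the shallowest, and Gfap there rests on 24 to 45 counts.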
